A study of Mus musculus with 6 samples.

Results

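The small heat shock proteins are chaperones that hold unfolding proteins in a soluble state without using ATP, and BAG3 is the co-chaperone that links some of them to HSP70. The genes described here are Hspb1, Hspb2, Hspb3, Hspb6, Hspb7, Hspb8, Cryab and Bag3. They were chosen by symbol, with earlier results of these data known. Each symbol stood on 1 row of the deposited gene table, so they are 8 of its 52550 gene identifiers. The series measured RNA of left ventricular tissue from C57BL/6J mice at 12 months of age, as 3 libraries of wild-type hearts (WT) and 3 whose label reads PGC1alpha overexpressed (PKI). The labels name neither the promoter of the transgene, nor the cells it is active in, nor any pooling of animals. The labels do not say that each library came from a separate animal, so every p-value reflects the spread between libraries, which may be technical.

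Heart muscle cells carry an unusually rich set of these chaperones, since sarcomeres and the desmin network are under constant mechanical load. A central pathway is chaperone-assisted selective autophagy: HSPB8 and BAG3 form a complex with HSP70 and the ubiquitin ligase CHIP, take up damaged filamin at the Z-disc and pass it to the autophagosome. Inherited changes in CRYAB and BAG3 cause human cardiomyopathies with protein aggregates or weakened sarcomeres.

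The values were FPKM, fragments scaled by transcript length and by library total, which allow levels to be compared between genes, and the sequencing depth is unknown. Log2 changes are PKI minus WT on the scale log2(FPKM + 1), fold values are ratios of mean FPKM, and "rose" means an adjusted p under 0.05 by limma, adjusted over all 9907 genes whose mean reached 1 FPKM. By this rule 3609 genes (36.4%) were higher and 293 (2.96%) lower in libraries labelled PKI, and the middle of all log2 changes tested stood at 0.21. After division by median-of-ratios size factors, called scaling below, that median was −0.020, and 775 genes (7.82%) were higher and 909 (9.18%) lower. The number of genes called in either direction went from 3902 to 2344 without WT replicate 3 and to 2498 without PKI replicate 3. Ppargc1a, which encodes PGC-1α, stood at 14.2, 12.8 and 12.4 FPKM in WT and at 11.6, 11.8 and 11.4 in the libraries labelled PKI, so the gene named in the labels was not higher there. Directions below are therefore those of the labels only. The tissue label is left ventricle, yet the atrial light chain gene Myl7 was listed at 74.3, 40.5 and 91.3 FPKM in WT and at 6.61, 14.8 and 81.9 in those labelled PKI. Myl7 and the atrial genes Myl4 and Sln were each highest in replicate 3 of both groups.

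Of the 8 genes, all of which reached the level for testing, 5 rose in libraries labelled PKI: Hspb1, Hspb7, Hspb8, Bag3 and Hspb3. That is to be read against the 36.4% of all tested genes that did so. By limma 0 of the 8 were lower, also 0 at an unadjusted p under 0.05, and the same 0 and 0 after scaling. After scaling 3 remained higher, Hspb1, Hspb7 and Hspb8, against 7.82% of all tested genes. The median log2 change of the 8 was 0.50, and 0.21 after scaling. In the 5 genes that rose, the groups were fully separate with PKI on top, as for 51.3% of tested genes. After scaling this held for the same 3 genes that stayed called, and for 16.6% of tested genes. For a single gene the exact two-sided permutation test of 3 against 3 libraries cannot go below p = 0.1, the value reached by each of the 5. In whole tissue such as this, a change in the number of cells of a type and a change in RNA per cell cannot be told apart.

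**Figure D1:**
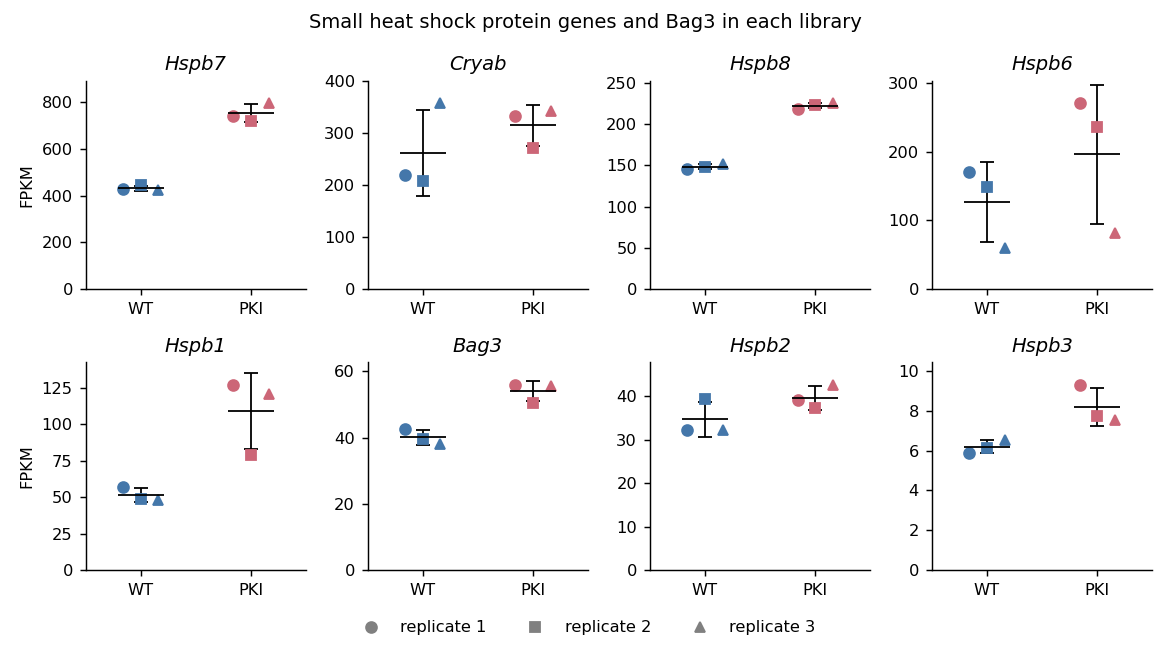
FPKM of each gene (vertical axes from 0, 1 scale per panel) in WT and PKI libraries; marker shapes give the replicate number, horizontal bars the mean and whiskers the SD (n = 3). Hspb7, Hspb8, Hspb1, Bag3 and Hspb3 show no overlap between the groups, while Hspb6 is lowest in replicate 3 of both groups and Cryab is highest in WT replicate 3.

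The order of the mean levels was the same in both groups. In WT, Hspb7 stood first, followed by Cryab, Hspb8, Hspb6, Hspb1, Bag3, Hspb2 and Hspb3, with means from 431 down to 6.19 FPKM. In libraries labelled PKI the means went from 753 down to 8.18 FPKM. The library values of Hspb8 and Hspb6 overlapped in both groups, those of Bag3 and Hspb2 overlapped in WT, and those of Hspb6 and Hspb1 overlapped in PKI. The other neighbours in the order did not overlap. Averaged over the 6 libraries, Hspb7 was above 99.5% of tested genes, and Hspb3, the lowest member, was above 70.8%.

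Hspb7 (ENSMUSG00000006221, chromosome 4: 141420779 to 141425311, plus strand, GRCm38) encodes the cardiovascular small heat shock protein, which binds filamin C and the thin filament. It measured 427, 444 and 423 FPKM in WT, against 741, 722 and 796 in libraries labelled PKI. The WT values lay within 1.05-fold of each other, and the lowest PKI value was well clear of the highest WT value. Hspb7 rose 1.75-fold, from 431 ± 11.0 to 753 ± 38.6 FPKM (SD, n = 3 each), with a log2 change of 0.80 (SE 0.053, 95% interval 0.676 to 0.927, limma adjusted p = 0.000413). After scaling the log2 change was 0.50 (adjusted p = 0.00259), and Hspb7 was called in all 16 alternative analyses.

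Its client gene Flnc, which encodes the muscle filamin of the Z-disc, measured 16.2, 13.7 and 12.8 FPKM in WT, against 30.5, 27.3 and 30.0 in libraries labelled PKI. Flnc rose 2.06-fold (log2 1.00, limma adjusted p = 0.000917, and 0.71 after scaling). The genes closest to Hspb7 in pattern were Nudt18 and B4galt5, with root mean square differences of 0.0383 and 0.0485 between their log2 values over the 6 libraries, each centred on the gene mean.

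Hspb8 (ENSMUSG00000041548, chromosome 5: 116408491 to 116422864, minus strand), the partner of BAG3, was the most even member. It measured 145, 148 and 152 FPKM in WT, against 219, 223 and 225 in libraries labelled PKI. Within each group the highest and lowest library differed by less than 1.05-fold, and the groups were far apart. Hspb8 rose 1.5-fold (log2 0.58, SE 0.047, 95% interval 0.469 to 0.692, limma adjusted p = 0.000632). After scaling it was still higher (log2 0.28, adjusted p = 0.0127), and it too was called in all 16 alternatives.

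Bag3 (ENSMUSG00000030847, chromosome 7: 128523616 to 128546981, plus strand) measured 42.7, 39.8 and 38.1 FPKM in WT, against 56.0, 50.6 and 55.6 in libraries labelled PKI. Its annotation overlaps 612 bases of 2610306O10Rik on the same strand, which was listed at 1.08 FPKM or less in every library. The groups did not overlap as deposited and did overlap after scaling. Bag3 rose 1.35-fold (log2 0.42, SE 0.070, 95% interval 0.254 to 0.585, limma adjusted p = 0.00542). After scaling its log2 change was 0.13 with an interval of −0.0393 to 0.293 (adjusted p = 0.275), so the call depended on how the libraries were scaled. Relative to the sum of the small heat shock protein genes, Bag3 was lower in each library labelled PKI: it made 4.04%, 3.81% and 3.53% of that sum in WT, against 3.22%, 3.21% and 3.44% in libraries labelled PKI (exact permutation p = 0.1, adjusted over 2 ratios 0.2). This ratio does not depend on the scaling. Its exact p of 0.1 is the smallest that 3 against 3 libraries can give, so the ratio could not pass at 0.05. Pltp and Txndc12 had the patterns closest to that of Bag3 (root mean square differences of 0.0207 and 0.0256).

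**Figure D2:**
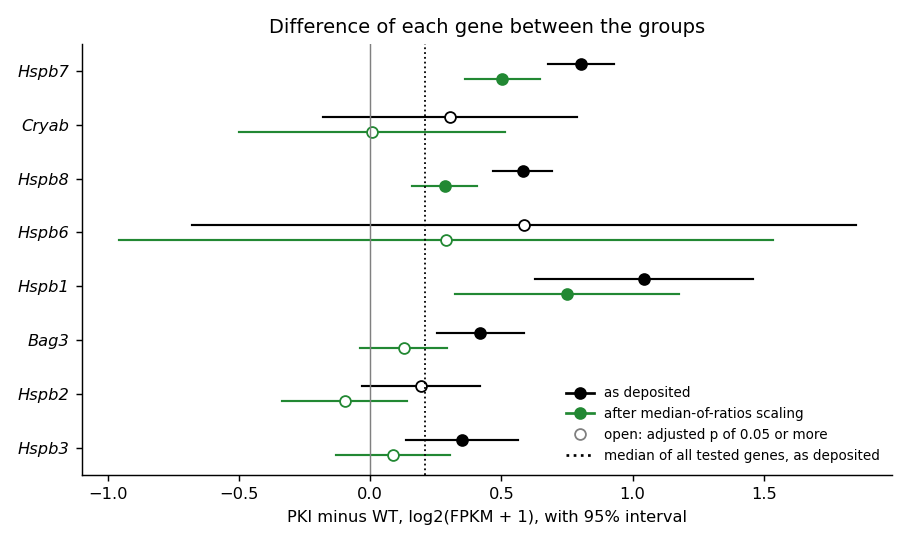
Log2 change (PKI minus WT, horizontal axis, log2(FPKM + 1)) of each gene with its 95% interval, as deposited in black and after median-of-ratios scaling in green; filled points passed at an adjusted p under 0.05, and the dotted line is the median of all tested genes, 0.21. Hspb7, Hspb8 and Hspb1 are filled in both colours, and Bag3 and Hspb3 as deposited only.

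Hspb1 (ENSMUSG00000004951, chromosome 5: 135887919 to 135889563, plus strand) encodes HSP25, a heat-inducible chaperone of actin and intermediate filaments, and had the largest log2 change of the 8. It measured 56.9, 49.1 and 48.2 FPKM in WT, against 127, 79.2 and 121 in libraries labelled PKI. All PKI values were above all WT values, and PKI replicate 2 was well below the other two. Hspb1 rose 2.12-fold (log2 1.04, SE 0.18, 95% interval 0.629 to 1.46, limma adjusted p = 0.00557). After scaling the log2 change was 0.75 (adjusted p = 0.0312), and without PKI replicate 2 it was 1.26 (adjusted p = 0.00158). The call held in all 16 alternatives.

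Hspb1 shares sequence with Hsp25-ps1 (ENSMUSG00000078915, chromosome 13: 45078498 to 45079127, minus strand), a processed pseudogene, and how the authors' counting divided reads between the 2 is unknown. The pseudogene was listed at 10.4, 10.9 and 8.97 FPKM in WT, against 26.4, 13.9 and 27.0 in libraries labelled PKI. By pattern over the 6 libraries it was the second closest gene to Hspb1 (root mean square difference 0.121). The closest was Dnaja1, an HSP40 co-chaperone gene on another chromosome (0.0801), at 3.01, 2.90 and 2.95 FPKM in WT, against 9.04, 5.12 and 9.10 in libraries labelled PKI. In both genes PKI replicate 2 was the lowest of its group. Both were picked by likeness to Hspb1 over these same libraries, so this is not a separate observation.

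PKI replicate 2 was often the lowest PKI library among heat-inducible chaperone genes. HSF1 is the transcription factor that switches on chaperone genes when unfolded proteins accumulate, and a list of 20 genes held it, its relatives and chaperones it is known to regulate. Of 19 tested, 15 rose (36.4% of all tested genes did), and the median log2 change of the 19 was 0.48. Among the 15 were Hspa1a and Hspa1b, nearly identical in sequence, whose WT means were under 1 FPKM. Both reached the level for testing only through libraries labelled PKI, and every count of this list in this paragraph includes both. With scaling, 7 were higher (7.82% of all tested genes), with a median of 0.21. PKI replicate 2 was the lowest PKI library in 12 of the 19, against 32.0% of all tested genes, and in 11 of the 15 that rose, against 29.6% of all genes that rose. The same library was lowest of the PKI libraries in 7 of 10 endothelial and 6 of 12 cardiomyocyte markers, so the pattern was not limited to chaperone genes. It was lowest in 2 of 10 fibroblast, 3 of 9 macrophage and 2 of 8 smooth muscle and pericyte markers other than Des. For atrial, red blood cell and skeletal muscle markers the counts were 2 of 9, 0 of 5 and 1 of 2. These counts were made after the values were seen.

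The inducible HSP70 genes were among them. Hspa1b measured 0.502, 0.446 and 0.366 FPKM in WT, against 9.72, 4.65 and 10.8 in libraries labelled PKI (log2 2.64, limma adjusted p = 0.00095). Hspa1a, nearly identical in sequence so that reads cannot be assigned with certainty, measured 0.471, 0.611 and 0.318 and then 9.60, 4.64 and 10.6. Both were low in every WT library and many times higher in every library labelled PKI, and both reached the level for testing only through the latter, so that their calls do not count as support. Hspa1l, their neighbour in the genome, rose from 1.36 ± 0.142 to 4.30 ± 0.692 FPKM. Dnajb1 and Hsph1, named after their values were seen, rose with log2 changes of 1.45 and 0.91 (for Hsph1 the adjusted p was 0.0731 with scaling). The constitutive HSP70 gene Hspa8 rose 1.47-fold as deposited (log2 0.55, adjusted p = 0.0172), and with scaling its log2 change of 0.26 missed the threshold (adjusted p = 0.237). Hsf1 itself measured 6.72, 5.43 and 5.10 FPKM in WT, against 7.74, 6.40 and 6.22 in libraries labelled PKI, with overlapping groups (log2 0.21, adjusted p = 0.182), and its log2 change was −0.049 after scaling.

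**Figure D3:**
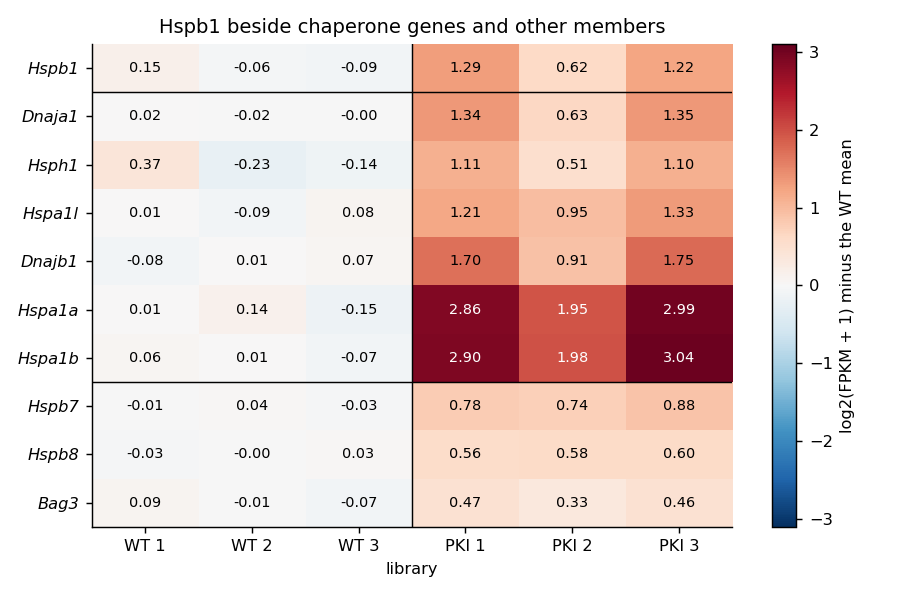
Each cell gives log2(FPKM + 1) minus the WT mean of that gene (colour and printed value) for Hspb1, 6 chaperone genes and 3 other members (rows) in the 6 libraries (columns). PKI replicate 2 is the palest PKI column for Hspb1 and the 6 chaperones. It is also the lowest for Hspb7 and Bag3, while Hspb8 is even across the PKI libraries. The 6 are a selection from the HSF1 list, where PKI replicate 2 was lowest in 12 of 19 tested genes. In Hspa4 and Hspa4l it was the highest of the PKI libraries.

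Promoter sequences are shown because heat-inducible chaperone genes were among the nearest to Hspb1 in pattern. The heat shock element, to which HSF1 binds, is built of inverted GAA units, and RefSeq windows (GRCm38.p6, 250 bases before to 50 after the start) were searched for GAANNTTC and TTCNNGAA, each its own reverse complement. GAANNTTC is in 7.86% of all 32851 windows and TTCNNGAA in 8.52%. Windows matched 6 of the 8 genes by symbol, all but Hspb2 and Cryab. Hspb1 holds GAANNTTC at 2 places, with first bases 117 and 97 before the start, and 0.344% of all windows hold it 2 or more times. The 250 bases upstream of Hspb1 (chr5:135887669-135887918, plus strand) follow, with both matches in capitals.
Hspb1: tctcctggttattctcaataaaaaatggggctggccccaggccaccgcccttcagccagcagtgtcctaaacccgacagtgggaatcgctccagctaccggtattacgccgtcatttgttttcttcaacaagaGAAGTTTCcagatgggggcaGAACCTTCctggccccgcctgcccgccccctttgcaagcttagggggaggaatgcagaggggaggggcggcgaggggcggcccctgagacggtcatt
GAANNTTC also occurs once each in the windows of Hspb8 (chr5:116422845-116422872), Bag3 (chr7:128523615-128523632), Hspb3 (chr13:113663883-113663910) and the second Hspb6 start (chr7:30553171-30553198), shown in capitals with up to 10 bases on each side, 5′ to 3′ on the gene's strand.
Hspb8: gaagccaggaGAAGTTTCtaggctcgcg
Bag3: gatgggaccaGAAGTTTC
Hspb3: tccccgaatgGAATTTTCaggcagaggg
Hspb6: agtaattattGAAGTTTCtaaataagga
The matches of Hspb8 and Bag3 begin at bases 3 and 43, with the start itself counted as base 1. The window of Hspb7 holds neither form, and 0 of the 6 genes' windows hold TTCNNGAA or either alternating 3-unit form, which 0.310% and 0.320% of all windows hold. Among the HSF1 list, 15 of 20 genes had a window and 7 of these held at least 1 of the 2 forms, namely Hspa1a, Hspa1b, Hsph1, Dnaja1, Hspd1, Hspe1 and Chordc1. The windows of Hspa1l and Dnajb1 held neither. Hspd1, with both forms in its second window and neither in its first, did not pass (log2 0.022, limma adjusted p = 0.844). That second window covers mostly the same bases as the window of Hspe1, on the opposite strand, so these genes are not separate cases. Hspe1 rose as deposited (log2 0.30, limma adjusted p = 0.0292) and did not pass after scaling (log2 0.0071, adjusted p = 0.965). A match describes these letters only, and whether a factor bound there was not measured.

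Cryab and Hspb6 are abundant muscle chaperones whose values spread widely between libraries of the same group. Cryab (ENSMUSG00000032060, chromosome 9: 50751325 to 50756636, plus strand), which encodes αB-crystallin, the chaperone of desmin, measured 219, 209 and 357 FPKM in WT, against 332, 270 and 343 in libraries labelled PKI. WT replicate 3 was the highest of all 6 libraries, and the groups overlapped. The log2 change of 0.30 (SE 0.21, 95% interval −0.18 to 0.789) did not pass (limma adjusted p = 0.262) and was 0.0068 after scaling. Without WT replicate 3 it was 0.55 and passed (adjusted p = 0.0220). Pank2 and Tpst2, the nearest genes in pattern, had root mean square differences of 0.0932 and 0.0909.

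Hspb6 (ENSMUSG00000036854, chromosome 7: 30552178 to 30555443, plus strand) encodes HSP20, which is phosphorylated under adrenergic stimulation. It measured 170, 149 and 60.4 FPKM in WT, against 271, 237 and 81.3 in libraries labelled PKI. Replicate 3 was the lowest library in both groups, by 2.81-fold from the highest in WT and 3.33-fold in PKI. The log2 change of 0.58 (SE 0.54, 95% interval −0.68 to 1.85) did not pass (limma adjusted p = 0.402) and was 0.29 after scaling. Leaving out PKI replicate 3 gave 1.13 (adjusted p = 0.0924), and leaving out WT replicate 3 gave 0.12 (adjusted p = 0.863). A value in replicate 3 at least 0.8 on the log2 scale below both other libraries, in both groups, was found in 3 of 9907 tested genes: Hspb6, Hnrnpf and Zfp260, a count made after the values were seen. Hnrnpf, a splicing factor gene, was also the gene nearest to Hspb6 in pattern (root mean square difference 0.290), followed by Txndc5 (0.325). GENCODE M21 annotates 4 transcripts for Hspb6, and 1 of them is protein coding. Its ends overlap Lin37 and Proser3 on the opposite strand, whose means were 2.03 and 0.178 FPKM in WT and 2.62 and 0.227 in those labelled PKI. On its own strand Hspb6 also overlaps the predicted gene Gm38670, whose values are not given here. The table gives 1 value per gene, and transcripts were not analysed here. Replicate 3, where Hspb6 was low in both groups and Cryab high in WT, was also the library with the highest Myl7, Myl4 and Sln in each group, and the part of atrial tissue in these values was not tested.

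Hspb2 and Hspb3 are muscle members whose proteins form a complex with each other. Hspb2 (ENSMUSG00000038086, chromosome 9: 50751078 to 50752354, minus strand) measured 32.3, 39.4 and 32.3 FPKM in WT, against 39.2, 37.2 and 42.6 in libraries labelled PKI. The groups overlapped. The log2 change was 0.19 (SE 0.095, 95% interval −0.0314 to 0.417, limma adjusted p = 0.141) as deposited and −0.098 after scaling, so its direction turned. Without WT replicate 2 it passed as deposited (log2 0.29, adjusted p = 0.0424). Cdh4 and Traf2 were nearest in pattern (0.0353 and 0.0372).

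Hspb2 lies head to head with Cryab on the opposite strand, and the 2 genes overlap by 1030 bases in GENCODE M21. Of the exonic bases of Hspb2, 252 of 834 (30.2%) are also exonic in Cryab, through 2 of the 6 annotated Cryab transcripts. The TruSeq RNA kit does not mark strand, so reads there cannot be told apart by strand. The ratio of Cryab to Hspb2 FPKM was 6.76, 5.30 and 11.0 in WT, against 8.48, 7.26 and 8.04 in libraries labelled PKI. WT replicate 3 held the highest ratio and the groups overlapped (exact permutation p = 0.9, adjusted over 2 ratios 0.9).

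Hspb3 (ENSMUSG00000051456, chromosome 13: 113662896 to 113663676, minus strand), the least abundant member, measured 5.90, 6.13 and 6.53 FPKM in WT, against 9.29, 7.70 and 7.53 in libraries labelled PKI. All PKI values were above all WT values, with PKI replicate 1 the highest. Hspb3 rose 1.32-fold (log2 0.35, SE 0.090, 95% interval 0.136 to 0.561, limma adjusted p = 0.0225), and after scaling its log2 change of 0.087 did not pass (adjusted p = 0.574). The call was also lost without PKI replicate 1 (adjusted p = 0.0527), WT replicate 1 (0.0561) or WT replicate 2 (0.0593). The nearest genes in pattern were Pef1 and Fbxl14 (0.0246 and 0.0294).

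Shares within the family are free of any scaling of the libraries. The 7 small heat shock protein genes added up to 1056, 1044 and 1080 FPKM in WT, against 1739, 1576 and 1617 in libraries labelled PKI, 1.55-fold higher on average. Hspb7 made 40.4%, 42.5% and 39.2% of the sum in WT, against 42.6%, 45.8% and 49.2% in libraries labelled PKI. Its share was higher in every library labelled PKI, though WT replicate 2 and PKI replicate 1 nearly touched. Hspb2 made 3.28% ± 0.430 and then 2.42% ± 0.197, and Hspb3 made 0.583% ± 0.0232 and then 0.496% ± 0.0349 (SD, n = 3 each). The shares of Hspb2 and Hspb3 were lower in every library labelled PKI than in any WT library. Over the 7 shares, those of Hspb7, Hspb2 and Hspb3 reached the smallest possible exact permutation p of 0.1 (adjusted 0.233). With that floor none of the 7 could pass at 0.05. The share of Hspb1 was 4.85% ± 0.484 and 6.61% ± 1.37, and PKI replicate 2 lay below WT replicate 1 (exact permutation p = 0.2). The share of Hspb8 was 13.8%, 14.2% and 14.1% in WT, against 12.6%, 14.1% and 13.9% in libraries labelled PKI, with overlapping groups, and the groups overlapped for Hspb6 and Cryab too. Those 2 variable genes were then left out of the sum, a comparison added after seeing the data. The share of Hspb7 was then 64.2% ± 0.420 in WT and 66.5% ± 1.15 in libraries labelled PKI. That of Hspb8 was 22.1% ± 0.737 and 19.7% ± 1.04. Both reached the smallest possible exact permutation p of 0.1 (adjusted over 5 shares 0.125), which cannot pass.

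**Figure D4:**
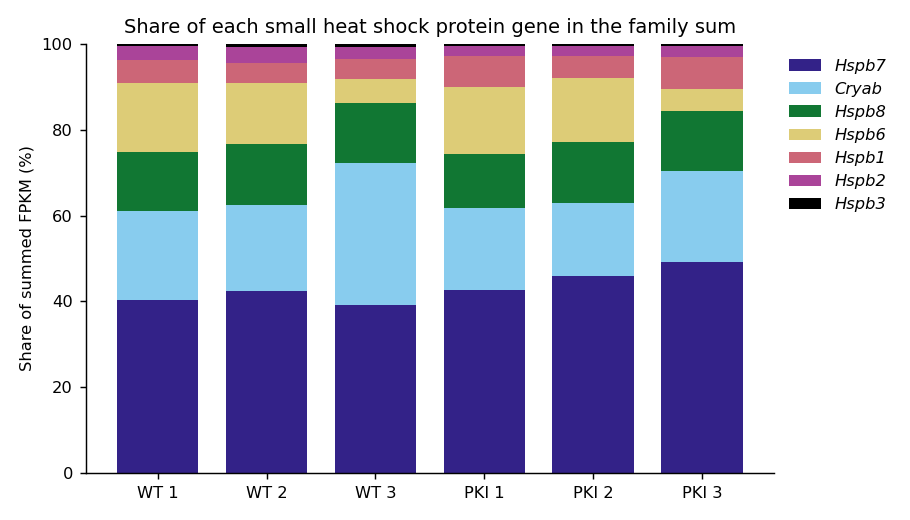
Share of each of the 7 small heat shock protein genes in their summed FPKM (vertical axis, percent) in each library (horizontal axis). Hspb7 makes the largest share throughout, from 39.2% to 49.2%, and the share of Cryab is largest in WT replicate 3.

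The 12 cardiomyocyte markers, most of them shared by atrium and ventricle, had a geometric mean of 777 ± 23.2 FPKM in WT, against 787 ± 35.8 in libraries labelled PKI (SD, n = 3 each). Of the 12, 4 rose and 3 fell, and the median log2 change of the 12 was −0.0098. After scaling 1 was higher and 7 were lower. Of all tested genes 36.4% were higher and 2.96% lower as deposited, and 7.82% were higher and 9.18% lower after scaling. Measured against that geometric mean, Hspb7 stood at 55.5%, 55.3% and 55.8% in WT, against 91.3%, 96.7% and 99.1% in libraries labelled PKI. Hspb8 went from 19.1% ± 0.822 to 28.3% ± 1.46, Hspb1 from 6.62% ± 0.684 to 13.8% ± 2.75, and Bag3 from 5.18% ± 0.324 to 6.87% ± 0.0768. For these 4 genes and Hspb3 the groups did not overlap (exact permutation p = 0.1, adjusted over 8 ratios 0.16). The geometric mean itself differed 1.01-fold between the groups, so these ratios largely repeat the values as deposited. As deposited, 51.3% of tested genes had all PKI libraries above all WT libraries, and the share for this ratio was not computed.

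Markers of other cells were counted in the same way. Counts of higher genes are to be read against 36.4% of all tested genes as deposited and 7.82% after scaling. Counts of lower genes are to be read against 2.96% and 9.18%. Of 10 fibroblast markers 8 rose, and 8 after scaling, and their summed FPKM was 275 to 412 in the WT libraries and 546 to 602 in those labelled PKI. Of 9 tested macrophage markers (10 listed) 8 rose, and 7 after scaling, with sums of 71.1 to 110 and 213 to 231. Smooth muscle cells also express small heat shock proteins, and of their 8 tested markers other than Des (9 listed) 4 rose, with sums of 126 to 154 and 191 to 228. After scaling 1 of the 8 was higher and 1 lower. Of 10 endothelial markers 3 rose, with sums of 144 to 157 and 157 to 185, and after scaling 0 were higher and 1 was lower by limma. Of 9 atrial markers 3 rose (sums 375 to 598 and 838 to 1697, most of it Nppa), with a list median of −0.53. Of the 5 red blood cell markers tested (6 listed), 5 fell (sums 380 to 538 and 274 to 338). Of 2 tested skeletal muscle markers (10 listed) 1 rose (sums 327 to 359 and 303 to 332, most of it Ckm). The fast myosin gene Myh4 was listed at 0 in all 6 libraries. The part of these cells in the values of the small heat shock protein genes was not tested.

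The wider pathway of BAG3 was read from lists chosen by function. Hspa8 and Dnajb1 are also on the HSF1 list, and Flnc on the list of clients. Of 15 genes of chaperone-assisted selective autophagy, all tested, 8 rose, against 36.4% of all tested genes (median log2 0.33, against 0.21). After scaling 4 were higher, against 7.82% (median 0.057, against −0.020). Synpo2l, a muscle protein related to the BAG3 partner synaptopodin-2, rose 2.51-fold, from 17.8 ± 0.700 to 44.6 ± 5.82 FPKM (limma adjusted p = 0.000536), and Flnc is described above. Sqstm1, the autophagy receptor p62, measured 50.9, 57.4 and 48.1 FPKM in WT, against 80.9, 85.0 and 87.6 in libraries labelled PKI (log2 0.69, adjusted p = 0.00138; 0.39 after scaling). Hspa8 and Dnajb1, described above, also rose. Stub1, which encodes CHIP, did not pass, with a log2 change of 0.068 (adjusted p = 0.45; −0.22 after scaling). Synpo2 itself spread from 2.05 to 5.58 FPKM within the libraries labelled PKI and did not pass (log2 −0.44, adjusted p = 0.287).

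Of 12 cytoskeletal and sarcomere genes whose proteins these chaperones bind or sit beside, 9 rose (36.4% of all tested genes did; median log2 0.39) and 3 were higher after scaling (7.82% of all tested genes; list median 0.12). The count of 9 went to 5 without WT replicate 2 or WT replicate 3, where 24.9% and 22.0% of all tested genes rose. Des, the intermediate filament that αB-crystallin protects, rose from 236 ± 13.6 to 457 ± 4.99 FPKM (log2 0.95, limma adjusted p = 0.000301; 0.66 after scaling). Ldb3, a Z-disc scaffold gene, rose 1.30-fold as deposited and did not pass after scaling (log2 0.081, adjusted p = 0.426).

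Of 4 tested BAG family genes besides Bag3 (5 listed), 1 rose, Bag6 (1.23-fold, adjusted p = 0.0153), and 0 were called after scaling. The count of 1 as deposited went to 0 without PKI replicate 1 or WT replicate 3 and to 2 without PKI replicate 2. Of all tested genes 25.2%, 22.0% and 27.7% rose in these 3 fits. Bag1 and Bag2, both HSP70 nucleotide exchange factors, had log2 changes of 0.18 and 0.22 that did not pass (limma adjusted p = 0.0556 and 0.0588) and of −0.11 and −0.048 after scaling. Of 4 other genes listed with the small heat shock proteins by name, Hspb11 alone reached the level for testing. It rose from 0.765 ± 0.106 to 1.38 ± 0.235 FPKM (log2 0.43, adjusted p = 0.0149). It reached that level only through the libraries labelled PKI, and it did not pass after scaling (adjusted p = 0.0974). Cryaa, the lens partner of Cryab, was listed at 0 in all 6 libraries.

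**Figure D5:**
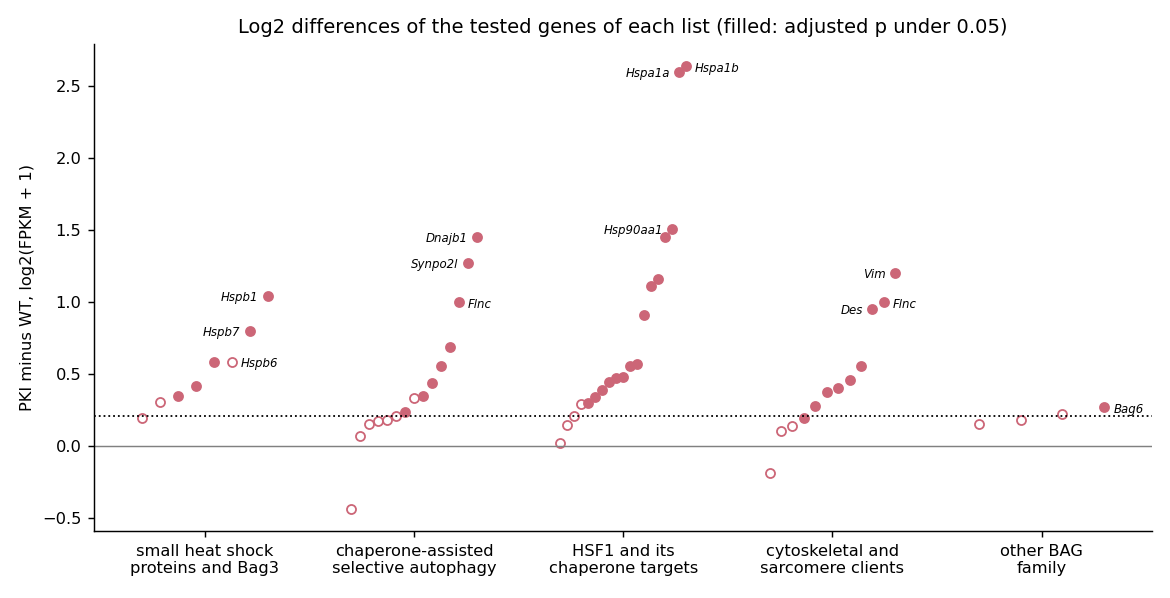
Log2 change (PKI minus WT, vertical axis, log2(FPKM + 1)) of every tested gene in 5 lists (horizontal axis), as deposited; filled points passed at an adjusted p under 0.05, and the dotted line is the median of all tested genes, 0.21. Hspa1a and Hspa1b stand above the rest, and Hspb1 and Hspb7 lead the small heat shock protein genes.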

How the data were processed

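The deposited table holds FPKM per gene and library, made by the authors. The submitters' processing notes name Bowtie 0.12.2, CASAVA and build mm9 without saying what each did; no source used here gives the program behind the FPKM, its annotation or its filters. Per the labels' protocols, libraries came from 1 µg of Trizol-extracted total RNA with the TruSeq RNA kit. FPKM carry no depth, so no counting interval is given. Positions come from GENCODE M21 (GRCm38), matched by gene identifier, and may not be of the build the authors used. Promoter windows are from RefSeq (GRCm38.p6), matched by symbol for 6 of the 8 genes; protein sequences were not analysed here.

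The 9907 genes whose mean reached 1 FPKM entered a limma 3.58.1 fit of log2(FPKM + 1) (R 4.3.3; variance trend, two-sided, Benjamini-Hochberg over all of them). Shares and ratios were compared by exact permutation tests (scipy 1.17.1), at 20 arrangements. The fit was checked on simulated data. Size factors were 0.898 to 0.922 in WT and 1.10 to 1.13 in PKI.

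The genes, lists and tests were chosen with earlier results of these data known. Genes named are the 8 members, Ppargc1a, the 3 smallest p of each pathway list, some fixed partners, and the 2 genes nearest each member in pattern, leaving out predicted-gene names (1 such result is not reported here); other genes overlap a member, mark a cell type or were chosen after their values were seen.

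The fit was repeated with each library left out, with replicate number as a block, with 3 scalings of the libraries, with array weights, without the variance trend, with pseudocounts of 0.5 and 0.1, at a mean of 5 FPKM and without any filter.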

Additional observations from a re-analysis of the deposited data

How the results depend on the processing

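Hspb1, Hspb7 and Hspb8 were higher in libraries labelled PKI and passed in all 16 alternatives, with log2 changes of 0.75 to 1.26, 0.50 to 0.83 and 0.28 to 0.60. The scaling of the libraries changed other calls. With median-of-ratios scaling, quantile normalisation and scaling to the nuclear FPKM total, the log2 change of Hspb3 was 0.087, 0.10 and 0.16 and that of Bag3 0.13, 0.18 and 0.21, none of which passed, and Hspb2 turned to −0.098, −0.042 and −0.014. The number of genes called was then 1684, 1515 and 1622 (775, 753 and 1019 higher), against 3902 as deposited (3609 higher); at a minimum mean of 5 FPKM, where 3935 genes were tested, it was 1925. At that mean 44.2% of all tested genes rose, against 36.4% as deposited. Of the HSF1 list 9 of 12 tested genes then rose, in place of 15 of 19. Of the other BAG genes 3 of 3 rose, in place of 1 of 4. With array weights 3 of 4 BAG genes rose, against 41.1% of all tested genes. Without a filter on low values Hspb3 (0.35) did not pass (adjusted p = 0.0551).

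Leaving out each library gave log2 changes of 0.26 to 0.40 for Hspb3, 0.14 to 0.29 for Hspb2, 0.16 to 0.55 for Cryab, 0.12 to 1.13 for Hspb6 and 0.38 to 0.47 for Bag3, and 2344 to 3425 genes called. Equal replicate numbers did not pair the samples: deviations from the group means correlated at −0.104, 0.00115 and 0.0529 between WT and PKI libraries of the same number. With a replicate block 2849 genes were called, Hspb6 (log2 0.58) passed (adjusted p = 0.0109), its PKI to WT ratios being 1.59, 1.59 and 1.35 at equal numbers, and Hspb3 (0.35) did not (0.0556). With Hspb6 and Cryab left out of the family sum, added after seeing the data, the share of Hspb7 differed by 2.34 percentage points in place of 5.19 and that of Hspb8 by −2.41 in place of −0.440. Depth is unknown. The causes were not tested.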
